A study of Mus musculus with 7 samples.

Results

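The genes described here lie side by side on mouse chromosome 4, from Dhrs3 into a cluster of KRAB zinc finger genes and processed pseudogenes. The members are all genes of GENCODE M1 (mm9) that start within chr4:144482730-146245835, which are 56 of the 37310 genes of the annotation. The study deleted a distal enhancer of Sox2, a pluripotency gene on chromosome 3, to ask whether it controls Sox2. The present stretch was picked because RNA of its genes was lower in the deletion clones than in wild type. The RNA contrasts that follow therefore chose the members, and they are given as a description with no test. The histone marks and the sequence comparisons were not used in that choice.

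KRAB zinc finger proteins are a large family of vertebrate transcriptional repressors. Their tandem C2H2 zinc fingers read DNA, often the sequence of transposable elements, and the KRAB box recruits the co-repressor Trim28, which brings in the histone methyltransferase Setdb1. The genes sit in clusters that grew by duplication, so neighbours are often near-identical in sequence. Processed pseudogenes are copies of messenger RNAs that were written back into the genome and resemble the parent gene on another chromosome.

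RNA-seq was performed on 4 clones of F123, a hybrid embryonic stem cell (ESC) line with 1 chromosome set of the CAST and 1 of the 129 mouse strain. Wild type (CAST+/129+) kept the distal Sox2 enhancer on both alleles, CAST+/129- had lost the 129 copy, CAST-/129+ the CAST copy, and CAST-/129- both copies. The cells were edited with Cas9, taken up on feeder fibroblasts and passaged on gelatin without feeders before RNA was made. ChIP-seq of H3K4me3, a mark of active promoters, and of H3K27ac, a mark of active promoters and enhancers, was performed on unedited F123 cells, and H3K27ac also on J1, an ESC line of 129 background. Every genotype was 1 clone and every condition 1 library, so no difference between genotypes has a replicate check, and clone and deletion cannot be told apart.

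RNA-seq values are given in the order wild type, CAST+/129-, CAST-/129+ and CAST-/129-. Counts are distinct alignments on the transcript strand, and FPKM and CPM scale them to the total on genes, FPKM also to the kilobases counted. These totals ran from 24891865 counts (wild type) down to 5847445 (CAST-/129-). Intervals in parentheses are exact 95% intervals and cover counting error only. Sox2 had FPKM of 174, 81.8, 72.8 and 7.38. The 6 ESC markers were all detected in every library and summed to FPKM of 1028, 925, 860.1 and 574, and Zfp42 was the other ESC marker at least 3-fold lower in CAST-/129-, at 52.2 against 185 in wild type. In CAST+/129- Utf1 and Dppa4 were at 131% and 156% of wild type, and in CAST-/129+ these and Pou5f1 were at 107%, 127% and 110% (Pou5f1 at 79% in reads before collapsing), while all 6 were below it in CAST-/129-. The 8 fibroblast markers summed to 19, 69.3, 73.6 and 376, with Col1a1 at 3.47, 38.9, 38.8 and 174. They were above wild type in 6, 7 and 8 of the 8, and Thy1, which made up most of the wild-type sum, had FPKM of 11.4, 5.68, 6.26 and 27.6. At least 3-fold higher than wild type were 2 of the 8 in each single-allele clone (Col1a1 and Col1a2) and 6 in CAST-/129- (Col1a1, Col1a2, Col3a1, Dcn, Lum and Postn), beside 0.731%, 1.08% and 1.85% of all 13817 genes with a mean FPKM of 1 or more, and Lum was at 0 counts in wild type. In reads before collapsing, Col1a2 in CAST+/129- (FPKM 9.55 against 0.712) no longer passed. In CAST-/129- the same held for Lum (7.38 against 0) and, narrowly, Postn (8.08 against 0.0314). In these bulk libraries fewer stem cells and less RNA per stem cell cannot be told apart, and the part of the fibroblast RNA in the values below was not tested.

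The members comprised 31 pseudogenes, 15 protein-coding genes, 6 processed transcripts, 3 lincRNAs and 1 miRNA. Of the 15 protein-coding entries, 5 form the proximal end (Dhrs3, Tnfrsf1b, Tnfrsf8 and a pair of models of Vps13d), and the coding sequences of the other 10 hold both a KRAB box and zinc fingers. Another 2 members aligned best to KRAB zinc finger genes. Pseudogenes were grouped by the gene outside the segment that they matched over at least 50% of their length. These groups were Cdv3 with 5 members, Rplp1 with 5, Hmgb1 and Hmgb2 with 4 each, Smarca5, Ppp2r5a and Tlk2 with 3 each, Pdlim5 with 2 and Rpl28 with 1, which leaves 9 other noncoding members. In all, 52 members had at least 200 counted bases, 39 of these averaged FPKM 1 or more, and 37 members reached FPKM 4 in a library and are named below. A member may have passed these levels only through the library in which it was high.

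The segment is repetitive, which bears on every value from it. Of its start positions, 38.9% hold a 36-base sequence found once in the genome, 43.3% a unique 50-base sequence and 53.0% a unique 100-base sequence. At 36 bases, 52.6% hold a repeated sequence and 8.51% fall in gaps of the reference genome. Gap positions count as not unique in all such shares. From Dhrs3 to the end of Tnfrsf8 the unique share at 36 bases was 96.4%, and after Tnfrsf8 it was 20.8%. Of the RNA-seq alignments of 100 bases in the segment, between 50.5% and 55.2% per library lay in sequence found more than once. Shorter alignments of 50 to 99 bases, which were more numerous, did so for 67.3% to 70.4% by their first 50 bases. Where such a sequence has exactly 2 copies in the stretch examined, the deposited files listed it at both places for only 3.19% to 13.2% of sequences, so that most multi-copy reads stand at 1 of their possible places. Values of single near-identical genes are therefore uncertain, and sums are also given over bases centred on a unique 50-base sequence. Uniqueness was read from the reference genome alone. Whether the same sequences are unique, or present, in the mouse strains of these cells was not tested. This limit holds for the RNA over unique sequence and for the histone marks.

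The upstream sequences of the zinc finger members show how alike they are. The 250 bases before the annotated start were read from NCBIM37 (mm9) for all 10 protein-coding members. The 12-base word GAAGCTAATTAA stood in 8 of them, and no other 12-base word but the one that starts 1 base before it was in as many. The word was chosen for that, after the sequences were read. On either strand it stood in the same window of 7 of the 9 KRAB zinc finger genes between the end of the segment and Miip, in 0 of 249 KRAB zinc finger genes elsewhere and in 0 of 22353 protein-coding genes outside the cluster. Between pairs of the 8 members with the word the windows were 48.9% to 84.7% identical (median 65.9%), and pairs with Gm13251 or Rex2, which lack it, were 41.0% to 46.6% identical. The word with 40 bases on each side is printed for 4 members along the segment, the word in capitals.

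Gm13225 upstream, chr4:145100506-145100597 (+): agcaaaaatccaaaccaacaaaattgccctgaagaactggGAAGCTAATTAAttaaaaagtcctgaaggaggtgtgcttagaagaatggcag
Gm13212 upstream, chr4:145174926-145175017 (+): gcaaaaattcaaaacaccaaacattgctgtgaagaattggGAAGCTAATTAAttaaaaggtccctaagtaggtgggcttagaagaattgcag
2610036A22Rik upstream, chr4:145587131-145587222 (-): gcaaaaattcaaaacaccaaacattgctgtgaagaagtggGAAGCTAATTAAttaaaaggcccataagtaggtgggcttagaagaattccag
Zfp600 upstream, chr4:146124056-146124147 (+): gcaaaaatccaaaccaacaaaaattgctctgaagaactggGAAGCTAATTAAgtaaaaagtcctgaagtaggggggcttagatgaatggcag

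A second set shows why pseudogene counts depend on where a read is placed. The stretch of 100 bases is the first ungapped one of the alignment to the parent's coding sequence, and capitals mark the bases that differ. Over their aligned coding bases, Gm13237 was 99.1% identical to Hmgb2 and Gm13223 92.9% identical to Cdv3. In the printed stretches Gm13237 differed at 1 base and Gm13223 at 12.

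Gm13237, chr4:145633001-145633100 (+): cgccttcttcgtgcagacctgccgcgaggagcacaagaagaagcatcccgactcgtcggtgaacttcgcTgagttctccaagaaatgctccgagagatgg
Hmgb2, chromosome 8, from base 48 of its coding sequence: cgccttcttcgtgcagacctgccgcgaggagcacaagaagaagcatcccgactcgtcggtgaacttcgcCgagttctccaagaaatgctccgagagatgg
Gm13223, chr4:145045701-145045800 (+): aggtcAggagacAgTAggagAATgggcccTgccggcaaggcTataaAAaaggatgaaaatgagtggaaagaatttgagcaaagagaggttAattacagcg
Cdv3, chromosome 9, from base 265 of its coding sequence: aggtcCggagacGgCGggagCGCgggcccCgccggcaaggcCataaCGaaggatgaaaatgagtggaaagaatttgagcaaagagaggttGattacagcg

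Taken as 1 sum, the RNA of the 56 members was lowest in CAST-/129-. It was 3874, 3250.0, 2880.0 and 1763 CPM. Relative to wild type, CAST+/129- had 83.9% (82.9 to 84.9), CAST-/129+ had 74.3% (73.1 to 75.5) and CAST-/129- had 45.5% (44.6 to 46.4). With reads before identical alignments were collapsed the shares were 87%, 77.4% and 47.4%, and over unique 50-base sequence 73.5%, 68.7% and 44%. In flanking segments of the same length, the sums stood at 97%, 82% and 84.7% of wild type on the Dhrs3 side and at 97.2%, 90.9% and 67.4% on the far side. In reads before collapsing the flanks stood at 105%, 96% and 104% and at 103%, 97% and 73.2%, so that the direction turned on the Dhrs3 side in CAST+/129- and CAST-/129- and on the far side in CAST+/129-. Of the RNA counted on the members' exons in wild type, 96432 counts were sense and 1986 antisense.

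The study's rule calls a gene changed when FPKM plus 4 differs 3-fold. None of the 39 members with a mean FPKM of at least 1 was 3-fold lower in CAST+/129- or in CAST-/129+, and 5 were in CAST-/129-, while 0.695%, 0.76% and 1.17% of all 13817 genes at that level were. These 5 were Gm13227, Gm13230, Gm13223, Gm13241 and Gm13036. In reads before collapsing Gm13227 (2.94-fold) and Gm13241 (2.37-fold) no longer passed, and with a pseudo-value of 10 Gm13241 and Gm13036 did not. At 2-fold the counts were 3, 4 and 17 of 39, beside 2.9%, 3.49% and 4.37% of all genes. RNA was below wild type in 34, 37 and 39 of the 39 members, and in 33 of them in all 3 deletion clones, which share the wild type library. Of all genes, 53.5%, 56.1% and 56.7% were below wild type, and 38.8% in all 3 clones. On the scale of log2(FPKM + 4), the median member differed from wild type by -0.51, -0.62 and -0.92, and the median of all genes by -0.03, -0.07 and -0.08. Since these contrasts chose the segment, nothing is read from that difference.

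**Figure D1:**
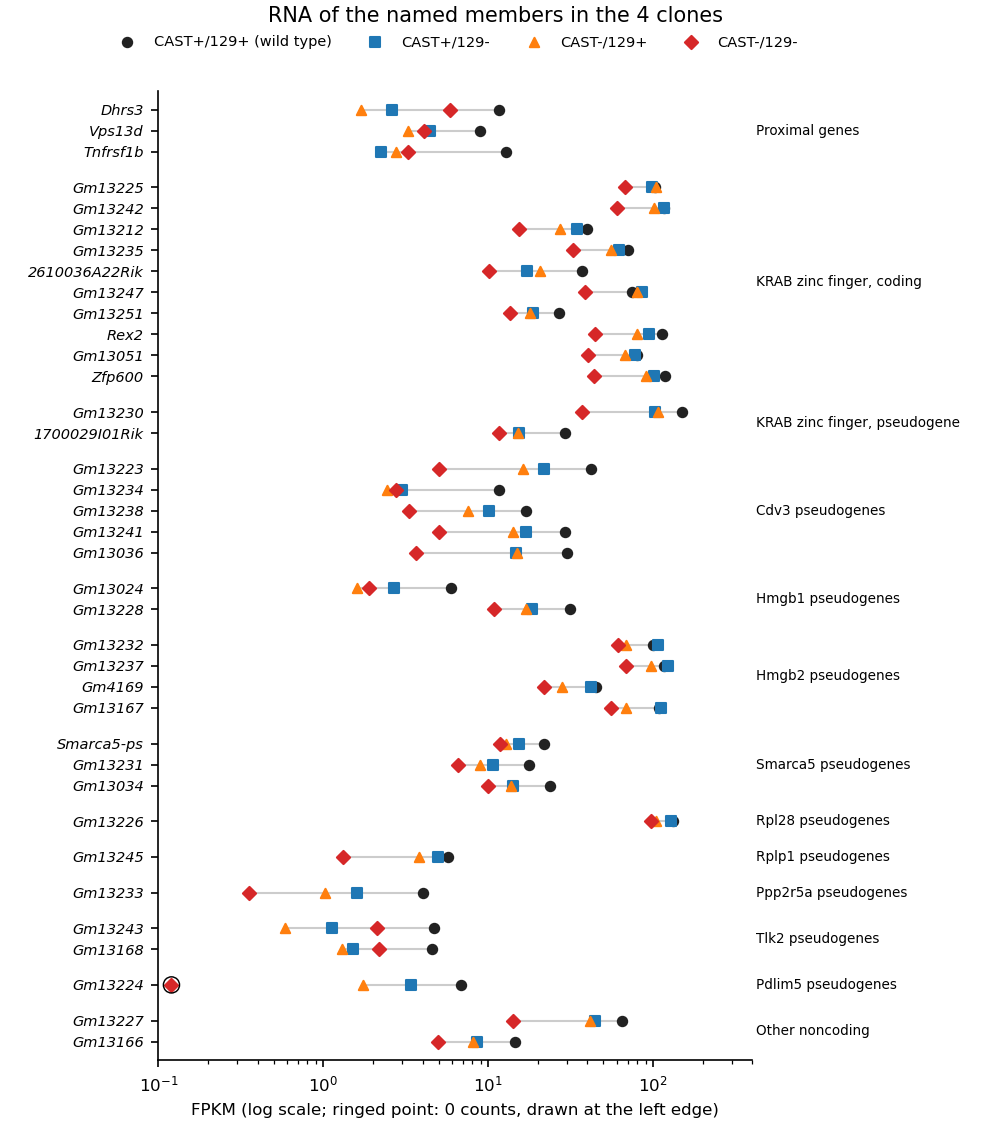
FPKM of the 37 named members in the 4 clones (log axis, 1 library each), grouped by family. Wild type (black) is the highest point for most members, CAST-/129- (red) is the lowest for all 10 coding zinc finger genes, and for the proximal genes a single-allele clone is lowest.

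The proximal genes were low in all 3 deletion clones, in sequence that is almost all unique. Dhrs3, which encodes a reductase that returns retinaldehyde to retinol, had FPKM of 11.7, 2.63, 1.69 and 5.84 (851, 96, 30 and 100 counts). CAST+/129- thus kept 22.5% (18 to 27.8) of the wild-type level, CAST-/129+ 14.4% (9.68 to 20.8) and CAST-/129- 50% (40.2 to 61.6), so that both clones with 1 allele left were below the clone with none. Tnfrsf1b, the second receptor for tumour necrosis factor, had FPKM of 12.8, 2.24, 2.76 and 3.27 (1212, 107, 64 and 73 counts). Its 3 deletion clones lay close together, at 17.6%, 21.6% and 25.6% of wild type. Vps13d, which encodes a large lipid transfer protein, had FPKM of 8.90, 4.41, 3.26 and 4.09 (5030, 1249, 450 and 543 counts), or 49.5%, 36.6% and 46% of wild type. Its other model shares all but 3 bases with it and had no counts. Tnfrsf8 (CD30) had FPKM of 1.41, 0.648, 0.761 and 0.445 (121, 28, 16 and 9 counts), below the level for naming. The sum over the proximal genes was 40.9%, 31.8% and 42.8% of wild type, and 40.3%, 34.9% and 47.7% in reads before collapsing.

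The 10 protein-coding KRAB zinc finger members differed from the proximal genes in their order of clones. Their sum was at least 83.5% of wild type in the clones with 1 enhancer copy left and 47.5% (46.3 to 48.6) of wild type in CAST-/129-. In CAST+/129- it was 92% (90.8 to 93.3) and in CAST-/129+ 83.5% (82 to 85.1), and over unique 50-base sequence, which held 9284 of the 63934 wild-type counts, the 3 shares were 107%, 104% and 58.6%. The direction of the sum in the single-allele clones thus turned with the choice of bases, and that in CAST-/129- did not. Gm13225 and Gm13247 held 4642 and 1985 of the 9284 unique counts. Over all bases in CAST-/129+, Gm13247 was at 106% (101 to 113) of wild type. Gm13225 was at 102% (97.6 to 107) there, an interval that takes in the wild-type level. Of the 8 genes with unique counts, 3 were below wild type over unique sequence in CAST+/129- and 5 in CAST-/129+, among them Zfp600 at 76.6% and Gm13212 at 73.8% in CAST-/129+. Together these genes held most of the segment's RNA, with 2568, 2363, 2146 and 1219 CPM.

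Among the zinc finger genes with many fingers, Zfp600 (17 fingers by the motif search) had FPKM of 119, 101, 90.2 and 43.8 (14590, 6250, 2706 and 1265 counts). CAST-/129- was at 36.9% (34.8 to 39.1) of wild type. Rex2 (15 fingers) had FPKM of 114, 94.6, 80 and 44.2 (5709, 2377, 979 and 520 counts) and CAST-/129- at 38.8% (35.4 to 42.4), with no unique 50-base sequence in its exons. Gm13212, with 20 fingers the longest array, had FPKM of 39.96, 34.6, 27.4 and 15.5 (3576, 1555, 599 and 325 counts) and CAST-/129- at 38.7% (34.4 to 43.4). In all 3 genes the order of the clones by all distinct alignments was wild type, CAST+/129-, CAST-/129+ and CAST-/129-. Over unique 50-base sequence Gm13212 in CAST+/129- was instead at 106% (92.4 to 122) of wild type, while Zfp600 kept the order.

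Gm13225 (13 fingers) had FPKM of 102, 98, 105 and 67.3 (8571, 4113, 2142 and 1324 counts), and is the protein-coding zinc finger member with the largest share of unique sequence, 64.4% of its counted bases. In these bases its CAST-/129- level was 66.6% (61.5 to 72) of wild type, while 98.6% and 108% stood in the single-allele clones. Gm13242 (14 fingers), whose exons overlap those of Gm13225 in part and are counted only where 1 gene owns the base, had FPKM of 117, 117, 101 and 60.2 (11680, 5863, 2452 and 1412 counts). Gm13247 (7 fingers) had FPKM of 75, 85.8, 79.7 and 38.8 (5897, 3385, 1532 and 717 counts) and was above wild type in both single-allele clones. In reads before collapsing, Gm13247 in CAST-/129+ was at 93.7% of wild type and Gm13225 at 96.8%, below it. By distinct alignments these 3 genes were at 86% of wild type or more while 1 enhancer copy was left and between 51.5% and 65.8% of it in CAST-/129-.

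Gm13051 (14 fingers) had FPKM of 79.6, 77.8, 68 and 40.4 (7179, 3519, 1498 and 855 counts). Gm13235 (5 fingers) had FPKM of 70.5, 62.3, 55.3 and 32.7 (2505, 1110, 480 and 273 counts). Their CAST-/129- levels were alike, at 50.7% and 46.4% of wild type. In CAST+/129- both were below wild type by distinct alignments and at 106% and 101% of it in reads before collapsing. Gm13251 (11 fingers) had FPKM of 26.9, 18.8, 18 and 13.6 (3051, 1065, 498 and 361 counts), and 2610036A22Rik, whose annotated protein keeps 2 fingers, had FPKM of 37, 17.1, 20.5 and 10.1 (1176, 273, 159 and 75 counts). By all alignments these latter genes were also low in the single-allele clones, 2610036A22Rik at 46.3% and 55.4% of wild type. Over unique sequence, with 318 wild-type counts, Gm13251 was at 86.5% (70.3 to 106) and 95.3% of wild type in these clones instead of 69.6% and 66.8%. Only 7.84% of the counted bases of 2610036A22Rik were unique at 50 bases, and they held no wild-type count.

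**Figure D2:**
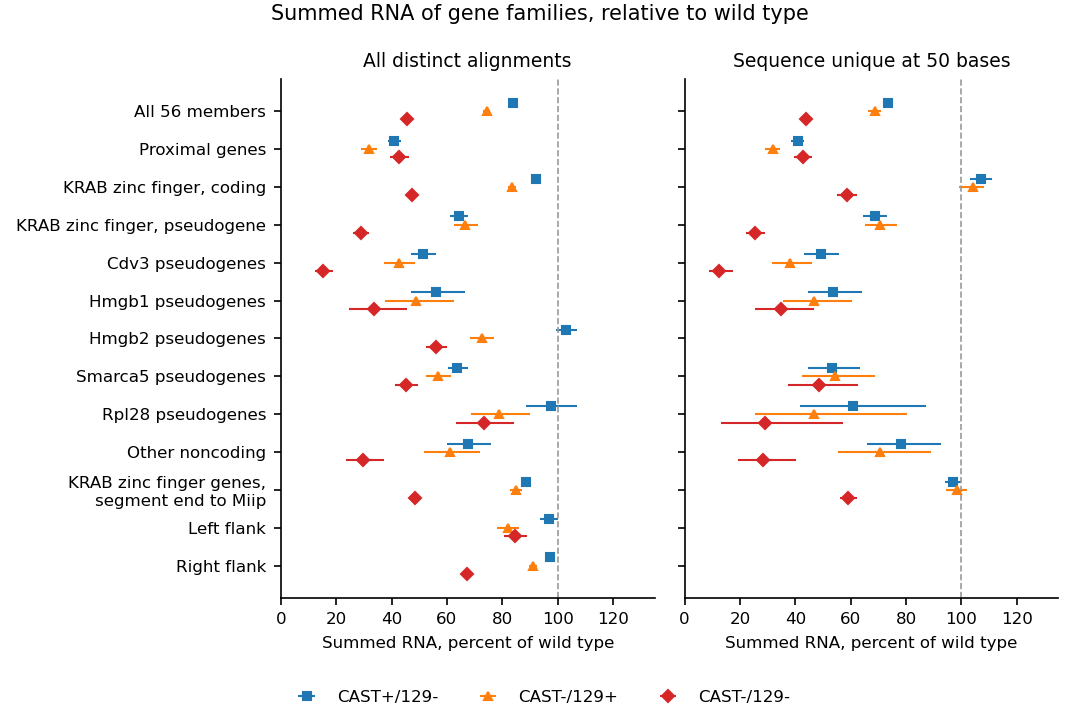
Summed RNA of member families, of the KRAB zinc finger genes beyond the segment and of the flanks, as percent of wild type in each deletion clone (points, with exact 95% intervals for counting error). The left panel uses all distinct alignments and the right panel alignments centred on unique 50-base sequence, without sets under 100 wild-type counts there and without the flanks. The Rplp1, Pdlim5, Tlk2 and Ppp2r5a copies are in neither panel. Coding zinc finger genes move from 92%, 83.5% and 47.5% to 107%, 104% and 58.6% between the panels, and the proximal genes stay in place.

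The pair of zinc finger pseudogenes and the processed transcript Gm13227 that overlaps one of them were also lowest in CAST-/129-. Gm13230, annotated as a pseudogene at chr4:145036643-145040791, had FPKM of 149, 102, 108 and 37 (4778, 1644, 840 and 278 counts), the highest wild-type FPKM of the segment. In CAST-/129- it was 24.8% (21.9 to 28) of wild type, and 24.5% (21.3 to 28) in unique sequence, which makes up 81.5% of its counted bases. Gm13227, a processed transcript whose gene body overlaps it on the same strand and which was counted only on bases of its own, had FPKM of 65.1, 44.6, 41.7 and 14.1 (608, 209, 95 and 31 counts), or 21.7% of wild type in CAST-/129-. The other zinc finger pseudogene, 1700029I01Rik, had FPKM of 29.2, 15.4, 15.2 and 11.6 (1755, 463, 223 and 164 counts). In each of these 3 members the single-allele clones lay between wild type and CAST-/129-, at 64.0% to 72.0% of wild type for Gm13230 and Gm13227 and at 52.6% and 52.0% for 1700029I01Rik, by all distinct alignments. Unique sequence held 58 wild-type counts of 1700029I01Rik and gave another order, 85.9%, 56.5% and 88.1% (43 to 166) of wild type.

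Of the families with at least 100 wild-type counts, the Cdv3 pseudogenes had the lowest share left in CAST-/129-, 15.2% (12.2 to 18.8) of wild type, and 12.6% (8.86 to 17.4) over unique sequence. Gm13223 had FPKM of 42.2, 21.8, 16.3 and 5.04 (785, 203, 74 and 22 counts). Gm13036 had FPKM of 29.97, 14.7, 14.9 and 3.66 (558, 137, 68 and 16 counts), and Gm13241 had FPKM of 29.4, 16.9, 14.1 and 5.02 (573, 165, 67 and 23 counts). In these 3 the CAST-/129- level was 11.9% to 17.1% of wild type and the single-allele clones were at 38.6% to 57.4%. Gm13238 had FPKM of 16.9, 10.2, 7.59 and 3.29 (328, 99, 36 and 15 counts), and Gm13234 had FPKM of 11.6, 3.0, 2.42 and 2.75 (216, 28, 11 and 12 counts), with all deletion clones of the latter at 20.9% to 25.8% of wild type. Cdv3 itself, the parent on chromosome 9, had FPKM of 98.5, 97.2, 104 and 95.5, or 98.6%, 105% and 96.9% of wild type.

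For the Hmgb2 pseudogenes few counts could be tied to the segment. Hmgb2 and Hmgb1 encode HMG-box proteins that bend DNA. Gm13237 had FPKM of 116, 123.2, 97.1 and 68.2 (3161, 1682, 645 and 436 counts), and Gm13167 had FPKM of 109, 111, 68.9 and 55.9 (1569, 801, 242 and 189 counts). Gm13232 had FPKM of 99.3, 107, 68.5 and 61.4 (1562, 843, 263 and 227 counts), and Gm4169 had FPKM of 45.2, 41.9, 28.1 and 21.8 (1296, 603, 197 and 147 counts). All 4 were lowest in CAST-/129-, at 48.3% to 61.9% of wild type. Of their 7588 wild-type counts together, 20 were centred on unique 50-base sequence, and the parent Hmgb2 on chromosome 8 had FPKM of 90.3, 100.4, 83.6 and 75.5. Over unique 100-base sequence, with 198 wild-type counts, the copies summed to 53.4%, 43.4% and 40.8% of the wild-type level, the first with an interval of 38.6 to 72.6. By all alignments they summed to 103%, 72.7% and 56%, and the parent was at 111%, 92.6% and 83.7%. In CAST+/129- the copies were thus below wild type over unique 100-base sequence. By all alignments the interval there (99.3 to 107) took in the wild-type level. Counts centred on unique 100-base sequence may include alignments shorter than 100 bases, which can match the parent or another copy equally well. Beyond the 20 counts on unique 50-base sequence, RNA of the copies and of the parent therefore cannot be told apart here.

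Of the 4 Hmgb1 pseudogenes, Gm13239 and Gm13170 had 0 counts in every library, and the other two lie in sequence that is nearly all unique, with 587 of 604 wild-type counts there. Gm13228 had FPKM of 31.5, 18.4, 16.9 and 10.8 (497, 146, 65 and 40 counts), and Gm13024 had FPKM of 5.99, 2.68, 1.60 and 1.91 (107, 24, 7 and 8 counts). The family sum over unique sequence was 53.7%, 46.7% and 34.8% of wild type, while Hmgb1 on chromosome 5 had FPKM of 28.5, 29.3, 38.6 and 27.9. The Smarca5 pseudogenes, copies of the gene for an ISWI chromatin remodelling ATPase, gave 63.8%, 56.8% and 45.2% of wild type and 53.2%, 54.3% and 48.7% over unique sequence. Gm13034 had FPKM of 23.6, 14, 13.8 and 9.99 (1999, 597, 286 and 199 counts), Smarca5-ps had FPKM of 21.7, 15.4, 12.8 and 11.8 (1735, 617, 250 and 221 counts), and Gm13231 had FPKM of 17.6, 10.7, 8.95 and 6.54 (1246, 380, 155 and 109 counts). The sums of both families were below wild type in all deletion clones, whether all bases or unique bases were counted. Of 4980 wild-type counts of the Smarca5 copies, 603 lay in unique 50-base sequence. Smarca5 itself, on chromosome 8, had FPKM of 49.9, 54.5, 47.0 and 44.7. In reads before collapsing Smarca5 was at 89.1%, 67.1% and 63.0% of wild type, and its copies at 77.2%, 72.6% and 63.7%.

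Gm13226, a copy of the ribosomal protein gene Rpl28, had FPKM of 132, 129, 104 and 96.9 (1331, 650, 256 and 229 counts) and the smallest relative fall of the named members in CAST-/129-. Over its unique sequence, which held only 131 wild-type counts, CAST-/129- was at 29.2% (13.1 to 57.2) of wild type. The Rplp1 copy Gm13245 had FPKM of 5.72, 4.93, 3.80 and 1.31 (37, 16, 6 and 2 counts). The Tlk2 copies Gm13243 and Gm13168 had FPKM of 4.69, 1.13, 0.582 and 2.12 (66, 8, 2 and 7 counts) and FPKM of 4.58, 1.52, 1.30 and 2.17 (72, 12, 5 and 8 counts). The values of these last 3 genes in the deletion clones rest on 2 to 16 counts each.

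The Ppp2r5a copy Gm13233 had FPKM of 4.01, 1.61, 1.03 and 0.355 (144, 29, 9 and 3 counts), and its parent on chromosome 1, which encodes a regulatory subunit of protein phosphatase 2A, had FPKM of 70.6, 29.6, 26.5 and 22.7. Here copy and parent were both low in the deletion clones, and 0 of the 394 wild-type counts of the Ppp2r5a copies lay in unique 50-base sequence. The Pdlim5 fragment Gm13224 had FPKM of 6.84, 3.41, 1.75 and 0 (16, 4, 1 and 0 counts), the 0 allowing up to 5.46 FPKM by a limit of 3 counts. Gm13166, a processed transcript, had FPKM of 14.6, 8.51, 8.04 and 4.97 (512, 150, 69 and 41 counts). The 19 members not named reached at most FPKM 3.72, and 4 of them had 0 counts in all libraries.

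**Figure D3:**
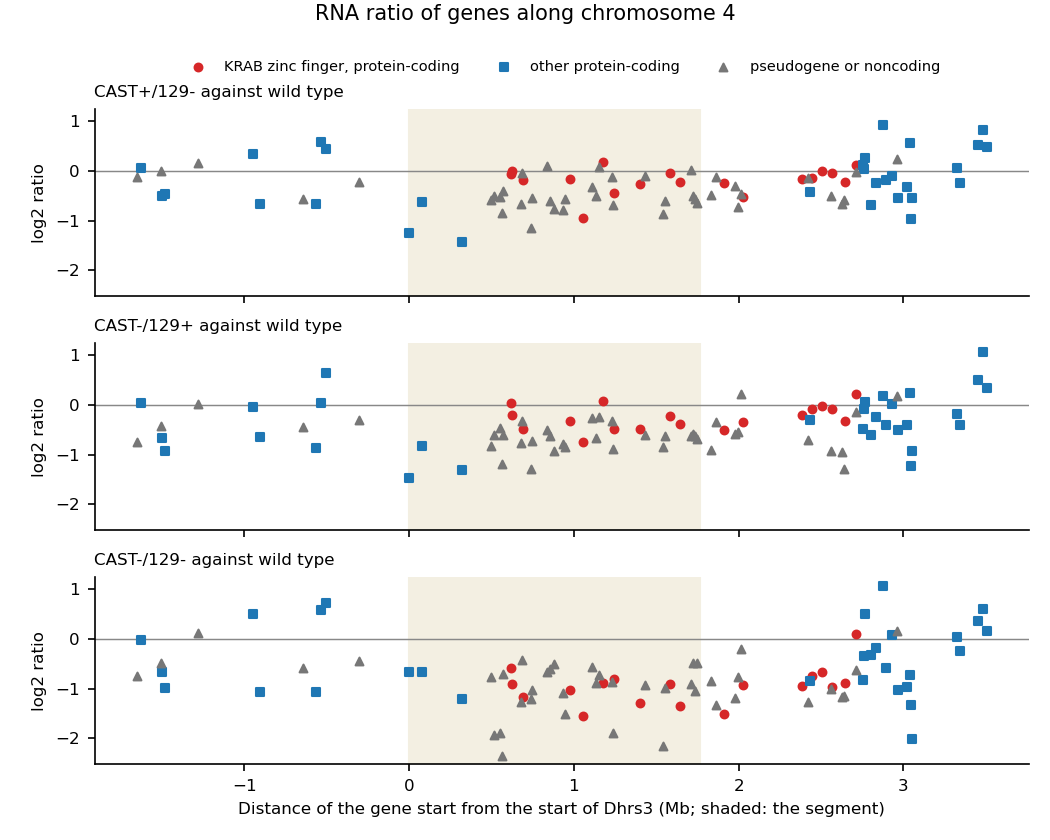
Log2 ratio of FPKM + 4 to wild type (y axis) against the distance of the gene start from that of Dhrs3 in megabases (x axis), for the 90 genes of the segment (shaded) and of flanks of the same length with a mean FPKM of at least 1. In the lowest panel (CAST-/129-) all 39 members lie below 0, and so do the first zinc finger genes past the right edge of the shading.

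At the left edge the nearest gene outside, the pseudogene Prdx2-rs3, had FPKM of 0.406, 1.08, 0 and 0 (6, 8, 0 and 0 counts), which is too few to place the edge, and the nearest outside gene with more RNA, Gm13127, had FPKM of 16.9, 13.8, 12.9 and 11.4. In reads before collapsing Gm13127 was above wild type in both single-allele clones. Farther out on that side, the protein-coding gene Pramef12 had FPKM of 20.3, 29.2, 34.1 and 36.2, above wild type in each deletion clone. At the right edge the last member was Gm13168, and the first gene outside, the pseudogene Gm13140, had FPKM of 11.5, 7.14, 4.28 and 4.61 (904, 281, 82 and 85 counts). The latter was at 40% of wild type in CAST-/129-, so lower RNA did not stop at that edge. From there to Miip lie 9 further KRAB zinc finger genes, and their sum was 88.6%, 84.9% and 48.5% of wild type, or 97%, 98.3% and 59.2% over unique 50-base sequence. Zfp534 among them had FPKM of 94.6, 91.8, 89.5 and 46.3, and Zfp933 had FPKM of 3.85, 4.56, 5.16 and 4.45, above wild type in each deletion clone. In CAST-/129- the coding zinc finger genes inside the right edge summed to 47.5% of wild type and those from the edge to Miip to 48.5%. Miip, which has no zinc fingers, was at 111%, 63.3% and 43.4% (35.4 to 52.6) of wild type. Next to it, Fv1 was at 50.1% in CAST-/129- on 12 counts, and Mfn2 at 159%.

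Zinc finger genes outside the segment were set beside the members, first by name, a set that takes in Zfp534 and Zfp933 of the same cluster. Of 323 genes named Zfp or Zkscan outside the segment that averaged FPKM 1 or more, 0, 0 and 2 were at least 3-fold lower, and their median log2 ratios were -0.09, -0.16 and -0.14. The 2 were Zfp42 and Zfp36l1, the latter with FPKM of 85.1, 32.1, 28.2 and 17.3, and the 1 that was 3-fold higher in CAST-/129- was Zfp36l3, with FPKM of 0.246, 5.51, 6.29 and 19.6. None of these 3 is a KRAB zinc finger gene. For the 216 genes with a KRAB box and fingers by coding sequence outside the cluster, a set added after the data were seen, the medians were -0.14, -0.20 and -0.27, and 0 were 3-fold lower in any clone. The 10 coding members stood at -0.18, -0.36 and -0.97, and the 8 genes between the segment and Miip at that level at -0.15, -0.14 and -0.91. Of these 10 and of these 8 genes, 0 were 3-fold lower in any clone as well, so that this count does not set the members apart.

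The pathway in which KRAB zinc finger proteins act was followed by a list of its genes. Of 29 symbols for Trim28 and its partners, 28 were found, as 29 annotated genes, and 0 were 3-fold lower or higher in any clone by distinct alignments, a count near the shares of all genes given above. In reads before collapsing Dnmt3b, a DNA methyltransferase, was 3.25-fold higher in CAST-/129+. By distinct alignments Dnmt3b had FPKM of 47.3, 106, 142 and 106, and Dnmt3l, its cofactor, had FPKM of 43.3, 101, 82.5 and 56.7. The median log2 ratios of the list were 0.05, 0.24 and 0.16. Trim28 had FPKM of 153, 216, 236 and 191 (15364, 10915, 5794 and 4518 counts). In reads before collapsing its CAST-/129- level was 84.6% of wild type instead of 125%, so that the direction in that clone turned with the unit. Setdb1 had FPKM of 29.6, 34.3, 28.4 and 24.7.

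In unedited cells 3 of the 5 proximal starts reached 5-fold for H3K4me3, 1 for H3K27ac in F123 and 0 for H3K27ac in J1. Marks were counted as the 5′ ends of distinct alignments within 2 kb of each gene start, and are given as fold over that library's mean along chromosome 4. The Dhrs3 start stood at 13.2-fold for H3K4me3 (11.2 to 15.5), 21.6-fold for H3K27ac in F123 (16.6 to 27.7) and 2.91-fold in J1 (2.07 to 3.98). The Vps13d start stood at 19-fold for H3K4me3 (16.6 to 21.7), 4.18-fold for H3K27ac in F123 (2.16 to 7.31) and 3.65-fold in J1 (2.70 to 4.83). Tnfrsf1b had 5.15-fold for H3K4me3, or 4.96-fold and so below 5-fold in reads before collapsing, and no more than 1.27-fold for H3K27ac in either line. Tnfrsf8 and the start of the other Vps13d model had 2.18-fold and 0.437-fold for H3K4me3, and at most 1.49-fold for H3K27ac. H3K27ac at Dhrs3 was higher in F123 than in J1 by more than counting error, and the libraries differ in depth, with 111564 and 521615 distinct alignments on chromosome 4, whose part in this was not tested.

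Past Tnfrsf8 the marks could be seen only where the sequence is unique, since 98.8% to 99.5% of the ChIP-seq alignments in the segment lay in sequence found once. Of the 27 member starts with under 20% unique positions, 0 reached 5-fold for any of the marks, and 12 had no H3K4me3 alignment at all. One of these was Rex2, at FPKM 114 in wild type, whose window has 0% unique positions, so that no statement on its promoter can be made. Of the other 29 starts, 7 reached 5-fold for H3K4me3, 6 for H3K27ac in F123 and 3 for H3K27ac in J1. For H3K4me3, 5-fold was reached by 1 of the 10 coding zinc finger members, 3 of the 5 proximal genes and 3 of the 41 noncoding members, and by 49.7% of 1340 other protein-coding starts on chromosome 4 and 89.8% of the 412 of these with a wild-type FPKM of at least 10. For H3K27ac it was reached by 2, 1 and 3 of these members and by 26.6% of the other coding starts in F123. In J1 it was reached by 1, 0 and 2 of them and by 19.1% of the other coding starts.

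Some starts inside the repetitive part carried the marks. Gm13034, the Smarca5 copy, stood at 12.3-fold for H3K4me3 (10.4 to 14.5), 18.5-fold for H3K27ac in F123 (13.8 to 24.2) and 9.69-fold in J1 (8.10 to 11.5). Gm13227 stood at 9.52-fold for H3K4me3 (7.82 to 11.5), 16.7-fold for H3K27ac in F123 (12.3 to 22.2) and 8.05-fold in J1 (6.61 to 9.72), and Smarca5-ps at 5.94-fold for H3K4me3. Of the coding zinc finger genes, Gm13212 stood at 5.68-fold for H3K4me3 (4.38 to 7.24), 5.93-fold for H3K27ac in F123 (3.45 to 9.49) and 3.21-fold in J1 (2.32 to 4.32), and was the only one at 5-fold for H3K4me3 within 2 kb, while within 1 kb Gm13225 also reached 5.42-fold. Gm13242, whose start lies inside Gm13225, stood at 2.62-fold for H3K4me3 (1.77 to 3.74), 16.7-fold for H3K27ac in F123 (12.3 to 22.2) and 9.55-fold in J1 (7.96 to 11.3). Within 1 kb these values were lower, at 1.75-fold, 9.06-fold and 3.73-fold. In F123 the Gm13242 start thus had more H3K27ac than H3K4me3, each relative to its chromosome 4 mean.

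The 1-kb bin with the most H3K4me3 after Tnfrsf8 was chr4:145022068-145023067, at 25.2-fold, with 86.5-fold for H3K27ac in F123 and 33.4-fold in J1. It lies inside Gm13227, with its centre 14075 bases before the start of Gm13230. In all, 11 of the 1340 bins after Tnfrsf8 reached 10-fold for H3K4me3, and 6 of these lay within 2 kb of a member start, as did 14.9% of all the bins. Over this whole stretch H3K4me3 was 0.804-fold (0.776 to 0.833) of the chromosome 4 mean per base. Per unique position it was 3.87-fold of the chromosome's mean per base, a scale that overstates it to the extent that the rest of chromosome 4 is not unique. The stretch from there to Miip had 0.997-fold (0.961 to 1.03) per base and 3.84-fold per unique position.

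**Figure D4:**
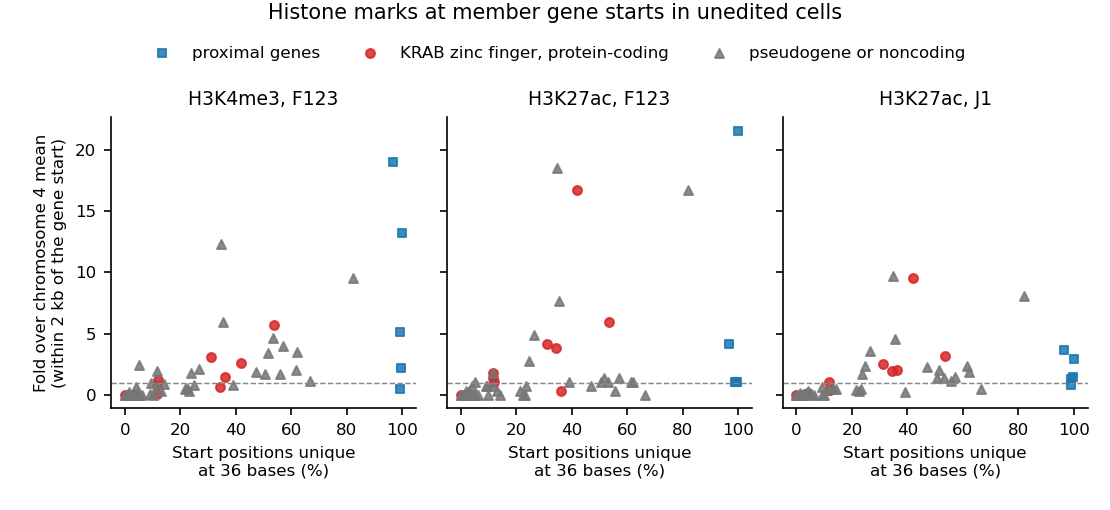
H3K4me3 in F123, H3K27ac in F123 and H3K27ac in J1 within 2 kb of each of the 56 member starts, as fold over the chromosome 4 mean (y axis, dashed line at 1), against the percentage of unique 36-base positions in the window (x axis). No start below 20% unique positions reaches 5-fold, and Dhrs3, Vps13d, Gm13034 and Gm13227 are the highest for H3K4me3.

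The upstream word printed above was found at 21 places in the segment, on either strand, at 21 between its end and Miip, and at 27 elsewhere on chromosome 4. In the segment, 8 places are those before the zinc finger starts. A match of the word is a description and marks no site.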

How the data were processed

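RNA-seq of 4 F123 clones and ChIP-seq of unedited F123 and J1 cells were analysed, 7 libraries with 1 for each group, as the labels give them. The authors mapped 2 × 100 base strand-specific poly(A)+ RNA-seq reads with Novoalign and USeq and ChIP-seq reads with Bowtie to mm9. The deposited files hold 1 line per distinct alignment with a whole-number count of the reads behind it. Versions and the treatment of reads that match several places are not given in the sources used here. The H3K4me3 antibody is named differently in the labels and in the methods.

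Distinct alignments were counted by midpoint on the transcript strand, opposite to that of the line, in exonic bases of 1 gene of GENCODE M1, so that overlapping genes were counted only on bases of their own. The wild type library had 2.58 reads per distinct alignment and the others 1.84 to 2.03, so that collapsing can lower abundant RNA most in wild type. FPKM used counts on genes as library size, a pseudo-value of 4 and the 3-fold rule of the study's methods. Counting error was given as a 95% interval, exact Poisson for a count and exact binomial for a ratio between libraries, and as a limit of 3 counts at 0. Sequence uniqueness was taken from exact matches of 36, 50 and 100 bases in NCBIM37, both strands. A KRAB box and fingers were searched in translated GENCODE coding sequences because no protein table was given, and pseudogenes were aligned to coding transcripts with blastn 2.17.0, over at least 50% of their length and at 80% identity or more. The calls were tested on simulated data whose only noise was counting error, without variation between clones or reads of uncertain place.

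The members, families, lists and comparisons were chosen with earlier results of these data known, and the 5-fold and 10-fold levels for marks, the 20% level for unique positions and the 12-base word after the data were seen. Members with FPKM of at least 4 in a library are named, with the genes at both edges, Sox2, Trim28 and list genes past 3-fold. Setdb1, Dnmt3b, Dnmt3l, the cell type markers, Gm13127, Pramef12, Zfp534, Zfp933, Smarca5, Miip, Fv1 and Mfn2 were named in addition, after their values were seen. Alternatives changed the unit, library size, strand, bases, pseudo-value, threshold, filters and ChIP-seq window. Alleles were not told apart. Scripts ran in Python 3.11.15 with Biopython 1.88, scipy 1.17.1, pandas 2.3.3 and numpy 2.4.6.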

Additional observations from a re-analysis of the deposited data

How the results depend on the processing

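Of 117 values under alternative settings, 73 stayed within set bounds, 42 moved and 2 turned direction. The bounds were 1.5 times for a count, the counting interval for a sum and a 95% interval over the members for a median. The last treats near-identical members as independent and is wide. A CAST+/129- median of -0.29 instead of -0.51 thus counted as stayed, so that the 73 do not measure how stable the medians are. The causes were not tested, except that fewer bases are counted where unique sequence is asked for. The values follow in the order CAST+/129-, CAST-/129+ and CAST-/129-, relative to wild type.

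The summed RNA of all members (83.9%, 74.3% and 45.5%) was 87%, 77.4% and 47.4% in reads before collapsing, 86.5%, 71.0% and 47.6% with all alignments of a file as library size, and 86.6%, 77.2% and 47.5% with median-of-ratios scaling. It was 79.1% in CAST+/129- over bases unique at 100 bases and 73.5%, 68.7% and 44.0% over bases unique at 50, the latter an alternative chosen after seeing the data. Over bases unique at 50, the sum of the coding KRAB zinc finger members turned from 92% to 107% in CAST+/129- and from 83.5% to 104% in CAST-/129+, and moved from 47.5% to 58.6% in CAST-/129-. At 100 bases it was 99.9%, 94.3% and 53.7%. The KRAB zinc finger genes from the segment to Miip moved from 88.6%, 84.9% and 48.5% to 95.1%, 93.7% and 56.8% at 100 bases and to 97%, 98.3% and 59.2% at 50. The proximal genes moved from 31.8% to 34.9% in CAST-/129+ and from 42.8% to 47.7% in CAST-/129- in reads before collapsing. These alternatives for single families were also chosen after seeing the data.

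Members at least 3-fold lower (0, 0 and 5) numbered 3, 4 and 10 with a pseudo-value of 1, 3 in CAST-/129- with a pseudo-value of 10, 3, 4 and 17 at 2-fold, 1 in CAST-/129- at 5-fold, 1 in CAST-/129+ with both strands counted and 3 in CAST-/129- in reads before collapsing. The median log2 ratio (-0.51, -0.62 and -0.92) was -0.29, -0.38 and -0.69 in reads before collapsing. With no filter on low values it was -0.24, -0.49 and -0.79. A pseudo-value of 1 gave -0.67, -0.73 and -1.19, and a pseudo-value of 10 gave -0.33, -0.46 and -0.76. Some of these shifts lay within the wide interval over members and were counted above as stayed. With a window of 1 kb, starts at 5-fold numbered 10 instead of 6 for H3K27ac in F123 and 5 instead of 3 in J1.

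No paired analysis was possible because the labels give 1 library per group and no shared numbers. For the same reason no library was left out within a group. Copies with no unique bases, among them Rex2 and 3 of the 4 Hmgb2 pseudogenes, have no count centred on unique 50-base sequence.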
